A study of Mus musculus with 4 samples.

Results

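Melanin is made inside melanosomes, lysosome-related organelles of pigment cells, and 10 genes of this machinery were followed through the study. They are the melanin enzymes Tyr, Tyrp1 and Dct, the melanosome matrix gene Pmel, and Mlana, which encodes a membrane protein. The others are the transporters Slc45a2, Slc24a5 and Oca2, the receptor Gpr143, and Gpnmb. The 10 genes were chosen by symbol from a table of read counts for 24527 genes. All 10 had a mean of at least 1 CPM over the libraries, as had 12728 genes in all. B16F10 is a pigmented melanoma line of C57BL/6 mice, labelled wild type in every library, and its RNA was sequenced from 4 sources with 1 library each. The 2D monoculture (below also monoculture) held B16F10 cells alone. In the 2D co-culture (co-culture) they grew beside NIH/3T3, a mouse embryonic fibroblast line, and the spheroid library came from hanging drops seeded with both lines, and the methods describe sorting the B16F10 cells of all cultures by a cytoplasmic green fluorescent protein. For the tumor library, B16F10 cells were grown under the skin of both flanks of female C57BL/6 mice about a year old. The methods describe these cells too as sorted, whereas the label of the library names snap frozen tumor. No duration of culture is given with the libraries.

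The depth lay between 118896900 and 150028663 counted reads per library. Values are CPM, the counts of a gene per megaread of its library after scaling by TMM, which sets the bulk of genes to a common level. Since each condition is 1 library, differences cannot be set against a spread between replicates, and p-values are left out. The methods speak of replicate RNA samples, and whether a library pools several of them is not stated. Intervals are exact 95% intervals and cover counting error only. Markers of other cell types differed between the libraries: 12 myeloid genes summed to between 11.8 and 30.5 CPM in the cultures and to 2338 CPM in tumor, and 9 fibroblast genes to 19.7 CPM in monoculture, 37.4 in spheroids, 683 in co-culture and 3194 in tumor. None of these genes was without a read in any library. Single genes made up much of some sums. Cd68 had 27.5 CPM in monoculture and 22.5 in spheroids. In co-culture Cd68 had 3.69 CPM, while 11 of the 12 myeloid genes were higher there than in monoculture. Pdgfrb had 11.0 CPM in monoculture and 23.5 in spheroids, where 5 of the 9 fibroblast genes were higher than in monoculture. Col1a2 had 514 CPM in co-culture, where all 9 were higher. Fewer melanoma cells and less RNA per cell cannot be told apart in bulk RNA. The part of other cells in the values below was not tested.

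Tyrosinase, encoded by Tyr, catalyses the first step from tyrosine to melanin, and its relatives Dct (dopachrome tautomerase) and Tyrp1 act further along the pathway to brown and black eumelanin. Pmel forms the amyloid fibrils on which melanin is laid down, and Mlana (MART-1) is a small membrane protein that takes part in the maturation of Pmel. Slc45a2, Oca2 and Slc24a5 are transport proteins that affect the pH and ions of melanosomes, and loss of each in people causes oculocutaneous albinism. Gpr143 is a melanosomal receptor whose loss causes ocular albinism. Gpnmb is a membrane glycoprotein related to Pmel and is made by macrophages as well as by pigment cells. Many of these genes are known targets of MITF, the transcription factor of the melanocyte lineage, which binds the letters CATGTG of the so-called M-box.

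The RefSeq promoter table of build GRCm38.p6, which gives 250 bases before to 50 bases after each start, held 6 of the 10 genes: Tyr, Tyrp1, Dct, Slc24a5, Oca2 and Gpnmb. The letters CATGTG, read on both strands, stood in 5 of these 6 promoters and in 14.2% of all 32851 promoters of that length. The longer form TCATGTG, which overlaps CATGTG, stood in 4 of the 6 and in 3.77% of all promoters, and the E-box CACGTG in 0 of the 6 and in 7.15% of all. The sites are printed below 5′ to 3′ on the strand of the gene, with CATGTG or its reverse complement CACATG in capitals. They are shown because these genes share these letters, and whether the letters bear on the levels of the genes was not tested. The Oca2 site lacks the T of the longer form.
Tyr, chr7:87493516-87493545, minus strand: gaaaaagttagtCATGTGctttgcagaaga
Tyrp1, chr4:80834155-80834184, plus strand: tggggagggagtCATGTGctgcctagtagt
Dct, chr14:118052379-118052408, minus strand: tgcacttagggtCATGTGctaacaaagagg
Dct, chr14:118052461-118052490, minus strand: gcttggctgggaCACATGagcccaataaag
Slc24a5, chr2:125068102-125068126, plus strand: aaggagactgctCACATGattcagc
Oca2, chr7:56239561-56239590, plus strand: ttgagcttgctaCACATGgctggaattttc
The first capital letter lies 21 bases before the RefSeq start in Tyr, 46 in Tyrp1, 150 and 232 in Dct, 13 in Slc24a5 and 186 in Oca2. Gpnmb had none of the letters in this window, which says nothing about the factor. The Tyrp1 site lies within an exon in the GENCODE annotation, whose gene start is upstream of that of RefSeq. A match of letters is a description and was not tested as a binding site.

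The 10 genes together took 2.61% of all counted reads in monoculture, 1.95% in co-culture, 1.44% in spheroids and 2.50% in tumor. Without Gpnmb these shares were 1.59%, 1.43%, 1.02% and 2.29%, so the spheroid library held the lowest share either way. Against the 2D monoculture, 3 of the 10 genes were more than 2-fold lower in the spheroid (Tyrp1, Mlana and Gpnmb) and 0 were more than 2-fold higher, when 1 CPM was added to each value. Of the 12728 genes tested, 17.9% were that much lower and 11.2% that much higher, or 29.1% in either direction. In the 2D co-culture 1 of the 10, Oca2, was more than 2-fold lower, where 9.51% of all genes were, and 0 were higher, where 3.79% of all were (13.3% in either direction). With upper quartile scaling these shares were 7.87% and 5.03%. In the tumor 1 was more than 2-fold higher, Oca2, beside 14.8% of all genes, and 1 was lower, Gpnmb, beside 18.2% of all (33.1% in either direction). With total counts these shares were 18.5% and 12.4%, and with upper quartiles 18.5% and 12.1%. A correction for GC content and length took them to 15.97% and 6.21%. The median log2 ratio of the 10 genes to the 2D monoculture was -0.36 for spheroids, 0.02 for co-culture and 0.24 for tumor, and that of all genes was 0.05, 0.01 and -0.14. These comparisons share the 2D monoculture library.

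**Figure D1:**
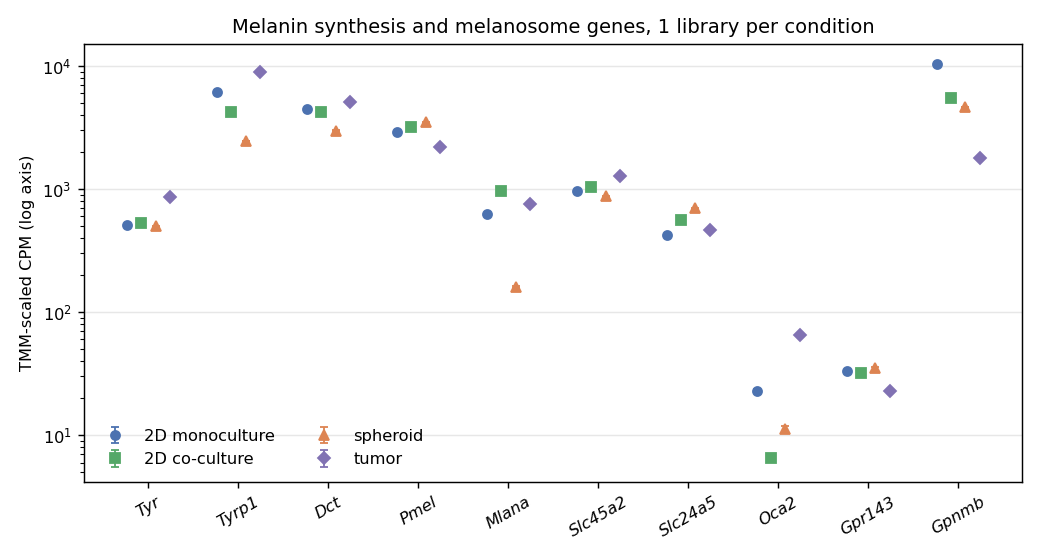
TMM-scaled CPM of each gene (log axis) in the 4 libraries, with 1 point per library and bars for the exact 95% counting interval, which are mostly smaller than the symbols. Tyrp1 and Mlana are lowest in the spheroid, Oca2 spans 6.53 to 65.6 CPM, and Gpnmb spans 10389.7 CPM in monoculture to 1772 CPM in tumor.

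Tyr (chr7:87424771-87493512, minus strand, 6 merged exons in GENCODE on GRCm38, the build mm10 of the labels) stood at 506 CPM in monoculture, 534 in co-culture, 497 in spheroids and 864 in tumor. Before any correction the cultures thus lay close together, and the tumor stood above them. After the correction for GC content and length, the spheroid stood above both the 2D monoculture (log2 ratio 0.55) and the tumor (0.29). Tumor to 2D monoculture then came to 0.34, and 2D co-culture to tumor to -0.05. The tumor-to-monoculture log2 ratio was 0.77 (interval 0.76 to 0.79), that of spheroid to tumor was -0.80 (-0.81 to -0.78), and that of spheroid to 2D monoculture was -0.03 (-0.04 to -0.01), whose sign turned with DESeq2 size factors, with upper quartiles and with a correction for GC content and length. Under total count and upper quartile scaling Tyr was just over 2-fold higher in the tumor than in the 2D monoculture, at log2 ratios of 1.01 and 1.02.

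Tyrp1 (chr4:80834123-80851719, plus strand, 8 merged exons) stood at 6168 CPM in monoculture, 4232.5 in co-culture, 2455 in spheroids and 8948 in tumor. It was the gene with the second highest CPM of the whole tumor library and ranked 30 in the spheroid. The spheroid was 2.51-fold below the 2D monoculture (log2 ratio -1.33, interval -1.33 to -1.32), 1.72-fold below the 2D co-culture and 3.64-fold below the tumor. The 2D co-culture lay between spheroid and 2D monoculture, at a log2 ratio to the latter of -0.54 (-0.55 to -0.54). These signs were the same under every scaling tried and after the correction for GC content and length, which gave -1.03 for spheroid to 2D monoculture and -1.14 for spheroid to tumor.

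Dct (chr14:118012790-118052244, minus strand, 9 merged exons) stood at 4482 CPM in monoculture, 4246 in co-culture, 2986 in spheroids and 5127 in tumor. Its order was that of Tyrp1 with smaller steps, from the tumor at the top to the spheroid at the bottom, but this order did not hold after the correction for GC content and length. The tumor was then lowest, at log2 ratios of -0.30 for tumor to 2D monoculture (0.19 before) and 0.39 for 2D co-culture to tumor (-0.27 before). The small step between co-culture and monoculture also turned, as it did with upper quartiles. The spheroid was below the 2D monoculture (log2 ratio -0.59, interval -0.59 to -0.58) and 1.72-fold below the tumor (-0.78, -0.79 to -0.77). The correction turned the difference from the tumor to 0.42, and that from the 2D monoculture shrank to -0.12.

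Reads of 1 enzyme over another within a library do not depend on scaling between libraries. Tyrp1 had 12.2 reads per read of Tyr in monoculture (interval 12.1 to 12.3), 7.92 in co-culture (7.85 to 7.99), 4.94 in spheroids (4.90 to 4.98) and 10.4 in tumor (10.3 to 10.4). The spheroid thus had the lowest Tyrp1 relative to Tyr, and the 2D co-culture came next. Tyrp1 over Dct put the spheroid lowest and the 2D co-culture next as well, with read ratios of 1.38 in monoculture, 0.997 in co-culture, 0.822 in spheroids and 1.75 in tumor. Dct over Tyr was 8.86 in monoculture, 7.94 in co-culture, 6.01 in spheroids and 5.93 in tumor. The GC contents of these genes differ (Tyr 35.2%, Dct 41.1% and Tyrp1 45.6% in the longest transcript), and its part in these ratios was not tested.

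**Figure D2:**
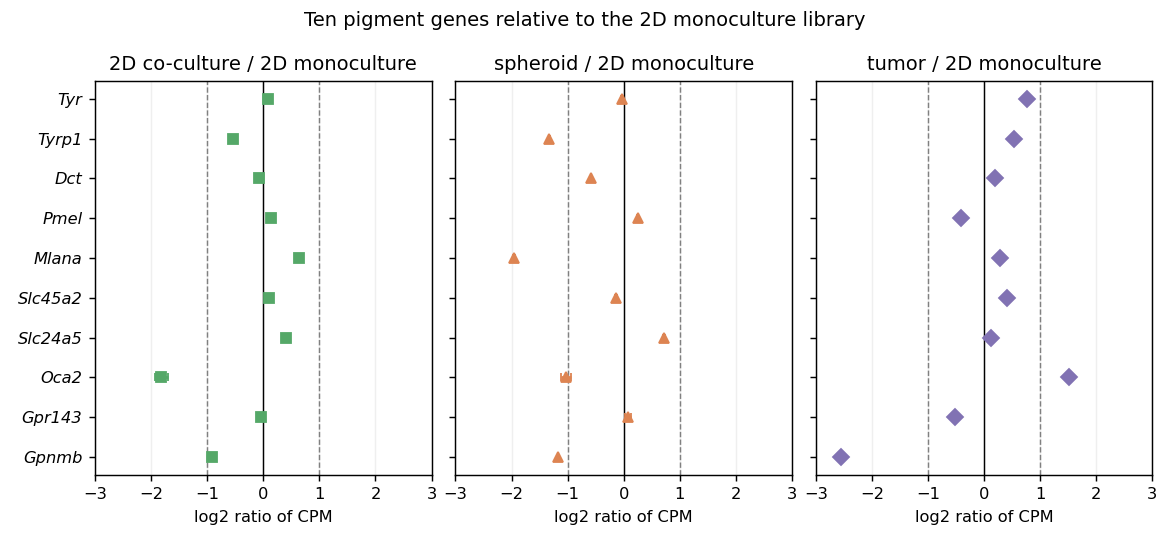
Log2 ratio of CPM of each gene in the 2D co-culture, spheroid and tumor libraries to the 2D monoculture library, with exact 95% counting intervals and dashed lines at 2-fold. Gpnmb lies left of 0 in all 3 panels, Mlana and Tyrp1 lie beyond the left dashed line in the spheroid panel alone of these 3, and Oca2 lies left in the cultures and right in the tumor.

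Pmel and Mlana parted in the spheroid. Pmel (chr10:128704195-128720238, plus strand, 13 merged exons) stood at 2923 CPM in monoculture, 3198 in co-culture, 3478 in spheroids and 2208 in tumor. All 4 values lay within 1.58-fold, with the spheroid highest and the tumor lowest. The spheroid-to-monoculture log2 ratio was 0.25 (interval 0.24 to 0.26) and turned to -0.20 after the correction for GC content and length. That of spheroid to tumor was 0.66 (0.65 to 0.66) and -0.0041 after it. Pmel has the highest GC content of the 10 genes, 53.8%. Its exons share 34 bases with Cdk2 and 105 with Dgka on the other strand, whose reads there cannot be told apart from its own.

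Mlana (chr19:29697824-29708634, plus strand, 5 merged exons) stood at 622 CPM in monoculture, 970.5 in co-culture, 159.8 in spheroids and 759 in tumor. The spheroid stood apart from the others, which lay within 1.56-fold. It was 3.89-fold below the 2D monoculture (log2 ratio -1.96, interval -1.98 to -1.94), 6.07-fold below the 2D co-culture (-2.60, -2.62 to -2.58) and 4.75-fold below the tumor (-2.25, -2.27 to -2.23). Against the co-culture, Mlana was the 1 gene of the 10 more than 2-fold lower in the spheroid, beside 8.46% of all genes (18% in either direction). After the correction for GC content and length the log2 ratios were -2.23, -2.60 and -2.16. Pmel had 21.8 reads per read of Mlana in the spheroid (interval 21.5 to 22.1), against 4.70 in monoculture, 3.29 in co-culture and 2.91 in tumor.

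Of the transporters, Slc45a2 differed little and Oca2 most. Slc45a2 (chr15:11000721-11029233, plus strand, 7 merged exons) stood at 959.8 CPM in monoculture, 1030.5 in co-culture, 871 in spheroids and 1271.5 in tumor, a range of 1.46-fold, the narrowest of the 10 genes. Its spheroid-to-tumor log2 ratio was -0.55 (interval -0.56 to -0.54), and -0.30 after the correction for GC content and length.

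Slc24a5 (chr2:125068124-125088677, plus strand, 10 merged exons) stood at 423 CPM in monoculture, 563 in co-culture, 697 in spheroids and 462 in tumor. Spheroid and 2D co-culture were thus the highest, and the spheroid-to-monoculture log2 ratio was 0.72 (interval 0.71 to 0.74), positive under every scaling and after the correction. With the correction the tumor fell below the 2D monoculture, at a log2 ratio of -0.38. Slc24a5 had 0.801 reads per read of Slc45a2 in the spheroid (0.794 to 0.808), 0.546 in co-culture, 0.441 in monoculture and 0.363 in tumor. Its exons share 921 bases with those of Myef2 on the other strand, and since no strand setting is stated, reads from that stretch cannot be told apart. Myef2 had between 4514 reads in the spheroid and 16348 reads in the tumor, against at least 60280 for Slc24a5 in any library.

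Oca2 (chr7:56239760-56536518, plus strand, 27 merged exons) stood at 23.0 CPM in monoculture, 6.53 in co-culture, 11.2 in spheroids and 65.6 in tumor. The tumor stood highest and the cultures with fibroblasts lowest, a range of 10.04-fold that was the widest of the 10 genes, with 748 to 10645 reads. The tumor was 2.85-fold above the 2D monoculture (log2 ratio 1.51, interval 1.45 to 1.57), 5.84-fold above the spheroid and 10.04-fold above the 2D co-culture. The 2D co-culture was 3.52-fold below the 2D monoculture (-1.82, -1.93 to -1.70), and the spheroid was 2.05-fold below it (-1.04, -1.12 to -0.95), which came to under 2-fold once 1 CPM was added. These signs were the same under every scaling and after the correction, where tumor to 2D monoculture gave 1.57.

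Gpr143 (chrX:152781921-152808646, plus strand, 9 merged exons) stood at 33.1 CPM in monoculture, 32.1 in co-culture, 34.9 in spheroids and 23.0 in tumor. The cultures lay close together and the tumor below them. The interval of the co-culture-to-monoculture log2 ratio, -0.11 to 0.02, holds 0, the only such case among neighbours in the order of libraries of any of the 10 genes. The tumor-to-monoculture log2 ratio was -0.53 (-0.59 to -0.46) and stayed negative under every scaling and after the correction.

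Gpnmb (chr6:49036546-49070929, plus strand, 13 merged exons) stood at 10389.7 CPM in monoculture, 5483 in co-culture, 4624 in spheroids and 1772 in tumor. It was the gene with the most reads of the whole 2D monoculture library, 1480191, or 1.02% of all, and ranked 26 in the tumor. The tumor was 5.86-fold below the 2D monoculture (log2 ratio -2.55, interval -2.56 to -2.55), which put Gpnmb among the lowest 0.636% of all genes in that comparison, and it was 3.09-fold below the 2D co-culture and 2.61-fold below the spheroid. The spheroid was 2.25-fold below the 2D monoculture (-1.17, -1.17 to -1.16), a difference that the correction took to -0.90, under 2-fold. The tumor was the lowest library for Gpnmb under every scaling and after the correction (-2.04 to the 2D monoculture). All 12 myeloid markers were higher in the tumor than in the 2D monoculture, led by Lyz2 with 1032 CPM. The part of myeloid cells in the level of Gpnmb was not tested. Gpnmb had 3.55 reads per read of its relative Pmel in monoculture (interval 3.54 to 3.57), 1.71 in co-culture, 1.33 in spheroids and 0.803 in tumor (0.799 to 0.807).

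Between spheroid and tumor, 3 of the 10 genes were more than 2-fold lower in the spheroid (Tyrp1, Mlana and Oca2), beside 27.6% of all genes, and 1 was higher (Gpnmb), beside 26.8% of all (54.4% in either direction). With total counts these shares of all genes were 33.5% and 19.4%, and after the correction 22.1% and 17.0%. Between 2D co-culture and tumor, 2 were lower in the culture (Tyrp1 and Oca2), beside 20.9% of all genes, and 1 was higher (Gpnmb), beside 18.8% of all (39.7% in either direction). With total counts these shares were 24.95% and 12.1%, and after the correction 19.1% and 9.16%. The 3 melanin enzymes were lower in the spheroid than in the tumor under every scaling, but after the correction for GC content and length Tyr stood at 0.29 and Dct at 0.42, and Tyrp1 alone of the enzymes stayed below 0. The median log2 ratio of the 10 genes was -0.66 for spheroid to tumor and 0.01 for 2D co-culture to tumor, and the correction took these to 0.14 and 0.23. Across 12466 genes the spheroid-to-tumor log2 ratio went with GC content at a Spearman correlation of 0.525, that of spheroid to 2D monoculture at 0.464 and that of tumor to 2D monoculture at -0.381. These are descriptions across genes of the same libraries, and the cause was not tested. Spheroid and 2D co-culture were both grown with fibroblasts. Their summed fibroblast genes nonetheless differed, at 683 CPM for the co-culture library and 37.4 CPM for the spheroid library. Between these libraries 9 of the 10 genes were within 2-fold, where 18% of all genes were over 2-fold in either direction. Of the 10 genes, 0 were more than 2-fold higher in the spheroid, where 9.54% of all genes were.

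Levels of different genes were set side by side per kb, and which gene led depended on the length used. Per kb of merged exons, Tyrp1 was first of the 10 in the 2D monoculture (2181 CPM per kb), the 2D co-culture (1497 CPM per kb) and the tumor (3164 CPM per kb), and Pmel was first in the spheroid (1517 CPM per kb). Per kb of coding sequence, which for Gpnmb is 1722 bases beside 6514 of merged exons, Gpnmb led in the 3 cultures and Tyrp1 in the tumor. With both lengths Tyrp1 took its largest share of the 10 in the tumor, 46.8% per kb of exons and 37.0% per kb of coding sequence, and its smallest in the spheroid, 19.6% and 15.5%. Pmel took its largest share in the spheroid, 34.2% and 18.9%, and Mlana its smallest there, 3.41% and 4.80%. Gpnmb took its smallest share in the tumor, 4.02% and 6.86%. Oca2 and Gpr143 took under 1% each in every library, with Oca2 at most 0.245% and Gpr143 at most 0.395% per kb of exons.

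**Figure D3:**
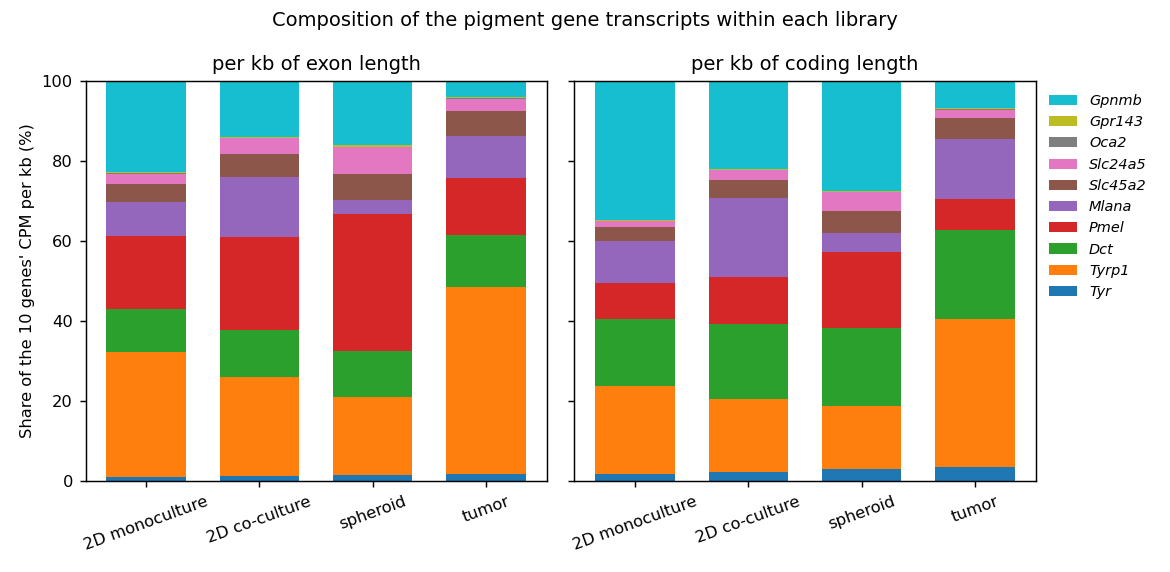
Share of each gene in the summed CPM per kb of the 10 genes (stacked to 100%) in the 4 libraries, per kb of merged exons on the left and of coding sequence on the right. With both lengths the share of Tyrp1 is largest in the tumor, those of Pmel and Slc24a5 are largest and that of Mlana smallest in the spheroid, and that of Gpnmb is smallest in the tumor.

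Genes that build, move and supply melanosomes or regulate the lineage were taken as 49 further genes in 5 lists, of which 48 passed the minimum of 1 CPM (all but Lef1). Against the 2D monoculture, 14 of the 48 were more than 2-fold lower in the spheroid and 2 were higher, beside 17.9% and 11.2% of all genes. In the 2D co-culture 6 were lower and 0 higher, beside 9.51% and 3.79% of all, and in the tumor 14 were lower and 4 higher, beside 18.2% and 14.8% of all. After the correction for GC content and length the spheroid had 11 lower and 2 higher, where all genes went to 11.7% and 9.26%. The tumor then had 2 lower and 6 higher, where all genes went to 6.21% and 15.97%. With upper quartiles the spheroid had 13 lower and 5 higher, beside 15.97% and 14.2% of all genes.

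Of 19 genes of melanosome biogenesis, 6 were more than 2-fold lower in the spheroid than in the 2D monoculture, beside 17.9% of all genes, and 4 after the correction, beside 11.7%. The 4 subunits of the adaptor complex AP-3, which sorts cargo to melanosomes, went different ways. Ap3b1, the lowest of the list, had 113 CPM in monoculture and 21.1 in spheroids, and Ap3d1 had 300.2 CPM and 73.2 CPM. Ap3m1 had 70.9 CPM and 31.7 CPM, but its log2 ratio of -1.14 came to -0.32 after the correction. Ap3s1 was higher in the spheroid, with 33.3 CPM and 60.4 CPM, at a log2 ratio of 0.84 before and after the correction. It was also the highest of the list in the tumor, with 56.4 CPM, which the correction took from 0.74 to 0.04. Hps6, a subunit of the trafficking complex BLOC-2, was the highest of the list in the spheroid and the lowest in the tumor, with 17.9 CPM in monoculture, 33.6 in spheroids and 6.09 in tumor. Neither rank of Hps6 held after the correction, which took its log2 ratio to the 2D monoculture from 0.87 to 0.15 in the spheroid and from -1.42 to -0.59 in the tumor.

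Of 6 genes of melanosome movement, 3 were more than 2-fold lower in the spheroid, beside 17.9% of all genes. With upper quartiles 2 were lower, beside 15.97% of all, and with the correction 2, beside 11.7%. The correction took Sytl2 from -1.06 to 0.19. Melanosomes are held at the actin network by Rab27a, melanophilin (Mlph) and myosin Va (Myo5a). Mlph stood at 512 CPM in monoculture, 361 in co-culture, 48.8 in spheroids and 198 in tumor, so that the spheroid lay far under the others (log2 ratio to the 2D monoculture -3.39, interval -3.43 to -3.36, and -3.67 after the correction, with 1 CPM added). Myo5a stood at 367 CPM in monoculture, 61.8 in co-culture, 54.4 in spheroids and 313 in tumor, low in both cultures with fibroblasts. The correction took its log2 ratio of spheroid to 2D monoculture from -2.73 to -1.48. Rabggta, a subunit of the enzyme that lipidates Rab proteins, was the highest of this list in the spheroid, with 16.9 CPM in monoculture and 28.3 in spheroids. Rab17 was the highest in the tumor, with 5.09 CPM in monoculture and 35.8 in tumor.

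Of 7 genes of ion and metabolite handling, 2 were more than 2-fold lower in the spheroid, beside 17.9% of all genes, and 4 in the tumor, beside 18.2%. After the correction 1 was lower in the tumor, Slc7a11, beside 6.21% of all. Slc7a11, the cystine importer that also feeds the sulfur of yellow and red pheomelanin, stood at 419.7 CPM in monoculture, 115 in co-culture, 234 in spheroids and 12.9 in tumor. The tumor-to-monoculture log2 ratio was -5.02 (interval -5.08 to -4.96), and -5.16 after the correction with 1 CPM added. Atp7a, the copper pump that supplies tyrosinase, stood at 87.9 CPM in monoculture, 32.9 in co-culture, 20.3 in spheroids and 161 in tumor, and was the highest of this list in the tumor. In the spheroid the extremes were Mcoln3, a cation channel, with 40.4 CPM in monoculture and 8.77 in spheroids, and Mfsd12, a transporter of melanosomes and lysosomes, with 37.8 CPM and 72.4 CPM. The log2 ratio of Mfsd12, 0.92, came to 0.21 after the correction, below that of Mcoln1 at 0.33.

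Of 5 genes that act on the Pmel protein, 1 was more than 2-fold lower in the spheroid, beside 17.9% of all genes: the protease Adam10, with 209 CPM in monoculture and 53.8 in spheroids. Cd63, which sorts Pmel within the organelle, was the highest there, with 895 CPM and 1504 CPM. The correction took the log2 ratio of Cd63 from 0.75 to 0.09 and that of the protease Bace2 from 0.56 to 1.24, over 2-fold and then the highest. In the tumor the protease Furin was the lowest, with 145 CPM in monoculture and 43.3 in tumor. Its log2 ratio of -1.72 came to -0.41 after the correction, and Adam10 was then the lowest at -0.95. Apoe, also a gene of macrophages, was the highest in the tumor, with 629 CPM and 1289 CPM, at a log2 ratio of 1.03 that the correction took to 1.69.

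**Figure D4:**
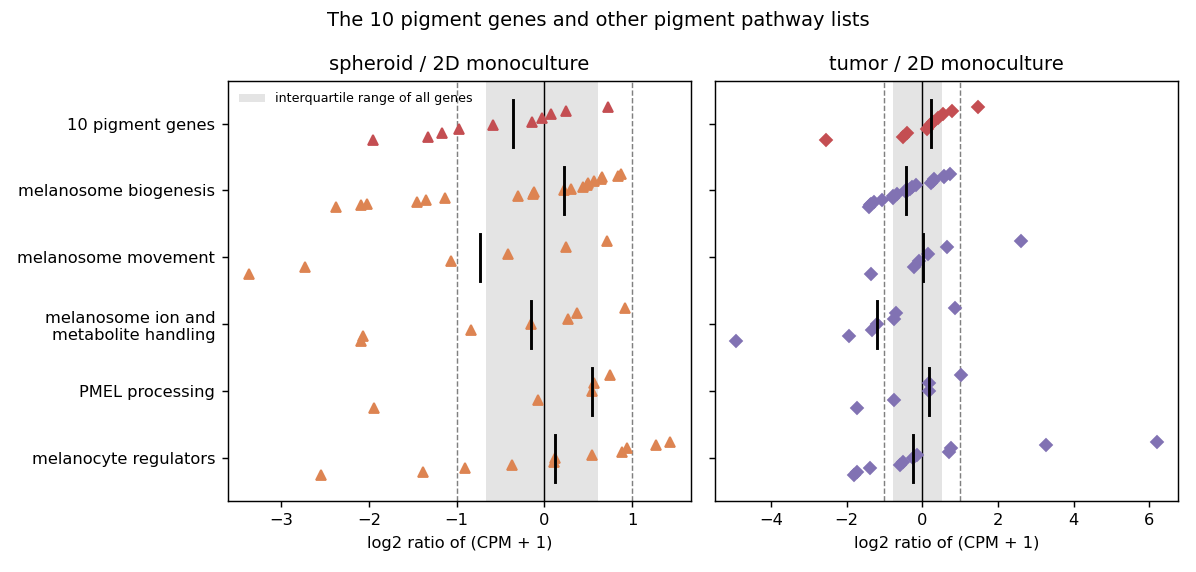
Log2 ratio of CPM + 1 of spheroid (left) and tumor (right) to 2D monoculture for the 10 pigment genes and the tested genes of 5 further lists, 1 point per gene. Black bars are list medians, dashed lines mark 2-fold and the grey band is the interquartile range of all genes tested. In the left panel Mlph is the lowest point, and in the right panel Slc7a11 is the lowest and Ednrb the highest.

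Among 12 regulators, of which 11 were tested, 2 were more than 2-fold lower and 2 higher in the spheroid than in the 2D monoculture, beside 17.9% and 11.2% of all genes. With upper quartiles 4 were higher, beside 14.2% of all genes, and after the correction 1, beside 9.26%. Mitf stood at 416 CPM in monoculture, 223 in co-culture, 70.3 in spheroids and 708 in tumor. Tyrp1 and, without the correction, Dct had the same order of the libraries. Tyr, Pmel, Mlana, Slc45a2, Slc24a5, Oca2, Gpr143 and Gpnmb had other orders, and a link to Mitf was not tested. The spheroid-to-monoculture log2 ratio of Mitf was -2.56 (interval -2.60 to -2.53), and -1.85 after the correction with 1 CPM added. Mc1r, the receptor for melanocyte-stimulating hormone, stood at 185 CPM in monoculture, 145 in co-culture, 70.5 in spheroids and 129 in tumor. Sox10, a neural crest factor upstream of Mitf, stood at 834 CPM in monoculture, 871 in co-culture, 902 in spheroids and 237 in tumor, with the tumor below the cultures. The correction took its log2 ratio of tumor to 2D monoculture from -1.81 to -0.98, that of spheroid to 2D monoculture from 0.11 to -0.61 and that of spheroid to tumor from 1.93 to 0.38, so that the spheroid then lay nearer to the tumor than to the 2D monoculture. Tfeb and Tfe3, relatives of Mitf that regulate lysosomal genes, were the genes above 2-fold in the spheroid. Tfeb had 33.9 CPM in monoculture and 93.3 in spheroids, which the correction took to a log2 ratio of 0.81, under 2-fold, and Tfe3 had 88.4 CPM and 214 CPM, at 1.29 after the correction. In the tumor Ednrb, an endothelin receptor of melanocytes and also of vessels, was the highest, with 73.5 CPM, where monoculture had 0.00702 CPM, below the 0.0211 CPM that 3 reads make.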

How the data were processed

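Libraries were made from poly(A) RNA and sequenced as paired reads. The authors deposited 1 table of raw read counts per refGene symbol, whole numbers without normalization, for 4 libraries. The submitters' processing notes name Trimmomatic, STAR, featureCounts and build mm10; their versions and the strand setting are not stated there. Columns were matched to conditions by their labels.

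CPM values were scaled with TMM (edgeR 4.0.16, R 4.3.3) over all 4 libraries. Other steps ran in Python 3.11.15 with scipy 1.17.1, pandas 2.3.3 and numpy 2.4.6. Log2 ratios of single genes printed with an interval have nothing added. The intervals come from exact (Clopper-Pearson) binomial limits on the reads of both libraries. Calls over 2-fold, list medians, corrected values and log2 ratios printed without an interval use CPM + 1, over genes averaging 1 CPM or more. No test was made, since each condition has 1 library. The calling step was tested on simulated counts with counting error alone, so that test says nothing about spread between replicates. Lengths, exons and GC content came from GENCODE vM21 (GRCm38), known for 97.9% of tested genes. The correction sorts genes into 10 GC classes crossed with 10 length classes and subtracts the median of every cell. Other alternatives were DESeq2 1.42.0 size factors, total counts, upper quartiles and a pseudocount of 0.1 CPM.

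The 10 genes, the lists and the rules were chosen with earlier results of these data known. Genes named beside the 10 are the highest and lowest of each list in spheroid and tumor against 2D monoculture, Mitf, Sox10, Mc1r, the most abundant gene of marker lists, and the genes closest in profile. Ap3d1, Ap3m1, Myo5a, Rab27a, Sytl2, Mcoln1, Bace2, Tfe3 and Eng were added after their values were seen, and Myef2, Cdk2 and Dgka for their overlap. Coding length stood in for the planned protein length, and the planned alignment of proteins was not run.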

Additional observations from a re-analysis of the deposited data

How the results depend on the processing

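No paired analysis was possible because there is a single library for every condition, and for that reason no library could be left out of a group. Values were taken as the same within 1.5-fold, medians also only without a change of sign. A single gene counted as reversed only where its ratio under TMM was over 2-fold. A change of sign from a smaller ratio counted as the same or as moved. With the correction Tyr, Dct and Pmel changed sign in this way for spheroid to tumor. Of the values that answer a comparison 116 were the same, 28 moved and 7 reversed. Of those of single genes 323 were the same and 7 moved, and such changes of sign are among both. TMM factors without the tumor library, chosen after seeing the data, moved none of the culture comparisons run with them. Total counts moved the median of all genes by 0.22 for tumor to 2D monoculture, by -0.33 for spheroid to tumor and by -0.25 for 2D co-culture to tumor, and upper quartiles by 0.23, -0.12 and -0.12.

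The median of the 10 genes for 2D co-culture to 2D monoculture reversed to -0.014 (total count) and -0.027 (GC and length correction), that of 2D co-culture to tumor to -0.013 (DESeq2 size factors), -0.27 (total count) and -0.13 (upper quartile), both from values near 0. With the correction, that of tumor to 2D monoculture reversed to -0.079 and that of spheroid to tumor to 0.14. Genes of the 10 over 2-fold higher in tumor than 2D monoculture numbered 2 with total counts and 2 with upper quartiles, since Tyr joined Oca2. Of all genes 18.5% were that much higher under either scaling. Those lower in spheroid than tumor numbered 5 with total counts, where Tyr and Dct joined, beside 33.5% of all genes. With the correction, 2 were higher in spheroid than tumor (Slc24a5 joined Gpnmb), beside 17.0% of all genes, and 1 was lower in 2D co-culture than tumor (Tyrp1 was lost), beside 19.1% of all. The share of all genes over 2-fold was 19.0% for spheroid to 2D monoculture and 11.98% for spheroid to 2D co-culture when every gene with a read was kept. The cause was not tested.

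Per kb of coding length, in the order 2D monoculture, 2D co-culture, spheroid and tumor, shares of the 10 genes moved to 1.82%, 2.31%, 3.17% and 3.60% for Tyr, 16.6%, 18.9%, 19.6% and 22.0% for Dct, 8.96%, 11.7%, 18.9% and 7.84% for Pmel, and 34.7%, 22.0%, 27.4% and 6.86% for Gpnmb. In the 2D monoculture they moved to 1.62% for Slc24a5, 0.053% for Oca2 and 0.157% for Gpr143, and in the 2D co-culture to 2.58% for Slc24a5 and 0.018% for Oca2. The change of length itself moves them. Depth limited Oca2 most, with 748 reads in the 2D co-culture.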

Other observations

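Genes other than the 10 were ranked by how close their log2(CPM + 1) profile, centred on its mean over the 4 libraries, came to the median profile of the 10 genes, among 9578 genes averaging 10 CPM or more. The closest were Zfp41, 4833420G17Rik, Sh3bp4, Rab32 and Gnpat, at distances between 0.131 and 0.144. Rab32, a small GTPase that carries enzymes to melanosomes and a gene of the biogenesis list, stood at 26.9 CPM in monoculture, 27.2 in co-culture, 21.7 in spheroids and 31.8 in tumor. Of the 10 genes, Slc45a2 (0.216) and Dct (0.237) were closest to this median, and Gpnmb (2.02) and Oca2 (2.10) farthest. With 4 libraries such distances describe these libraries only.

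Closest to Gpnmb were Cpe, which encodes a carboxypeptidase of secretory granules, Wisp1, a secreted matricellular protein, and Aars, the alanyl-tRNA synthetase, at distances of 0.199, 0.282 and 0.302. Cpe stood at 1073 CPM in monoculture, 613 in co-culture, 573 in spheroids and 189 in tumor. The nearest of the other pigment genes to Gpnmb was Gpr143, at 1.47.

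Among markers of other cells, 5 skeletal muscle genes summed to 4599 CPM in the tumor, led by Acta1 with 1360.1 CPM, and to 3.28 CPM in the 2D monoculture, where Myh4 had no read. The most abundant fibroblast marker in the tumor was Col3a1 with 1307 CPM, and the most abundant endothelial marker was Pecam1 with 99.4 CPM. Over 10 endothelial genes the sums were 398 CPM in the tumor and 288 CPM in the 2D monoculture, where Eng made up 285 CPM. The 5 keratinocyte genes summed to at most 1.95 CPM, in the tumor. Krt5 had no read in the cultures, Krt14 and Trp63 none in monoculture and spheroid, and Krt1 none in co-culture, spheroid and tumor. The part of these cells in the levels of the pigment genes was not tested.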
